A study of Mus musculus with 24 samples.

Results

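Gene expression was compared between Mll1-KO and wild-type (WT) mouse embryonic stem cells at day 0, before any differentiation. The comparison rests on 6 of the 24 libraries of the series, 3 of each genotype, taken by the genotype and day in their labels. RNA with a polyA tail was sequenced in WT cells, both single knockouts (Mll1-KO, Mll2-KO) and the double-KO, before differentiation and after 4 days with retinoic acid, with 3 libraries in each of 8 groups. Both groups compared here grew on gelatin in medium with LIF and 15% FBS, and neither received 4-OHT, the drug that activates an inducible Cre. The Mll1-KO cells came from CRISPR deletion with a pair of guide RNAs on either side of the removed region, in a line described earlier in which Cre can delete Mll2. The labels do not say whether the WT libraries came from that same parental line, how many Mll1-KO clones were used, or whether the 3 libraries of a group were separate cultures. A difference of genotype and a difference between clones or lines therefore cannot be told apart, and every p-value measures only the spread between libraries, here that of all 4 groups of day 0, since their 12 libraries share 1 fit.

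MLL1, encoded by Kmt2a, belongs to the enzymes that methylate lysine 4 of histone H3, a mark of active promoters and enhancers. It works in a complex with WDR5, RBBP5, ASH2L, DPY30 and menin, and it is best known for keeping Hox genes active in the embryo and in blood cells. Its closest relative is MLL2, encoded by Kmt2b, and further enzymes of the same family are encoded by Kmt2c, Kmt2d, Setd1a and Setd1b. Embryonic stem cells in LIF and serum keep the pluripotent state of the early embryo, and a share of such cells drifts towards primitive endoderm.

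Recovered totals were 21831268 to 22544651 reads in WT and 17703443 to 20878551 in Mll1-KO. Levels are deposited normalized counts, that is, reads divided by 1 size factor per library. Changes are log2 differences of the normalized count plus 1 from limma with a trend, and a gene is called at a Benjamini-Hochberg adjusted p under 0.05. Folds are taken from the same log2 scale, which understates the change of genes with few reads. The stem cell markers Pou5f1, Sox2, Nanog, Zfp42, Esrrb and Klf4 were present in all 6 libraries, the lowest of them, Zfp42, at 4365 to 6016 normalized counts. Y-linked and mitochondrial genes were not tested here.

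The targeted gene was read first. Kmt2a (chromosome 9, 44803355 to 44881296 on mm10, minus strand) stood at 1097, 1047 and 1121 normalized counts in WT and at 20.6, 25.4 and 43.0 in Mll1-KO. Every Mll1-KO library was thus far below every WT library, and the log2 change was -5.22 ± 0.20 (SE, adjusted p = 4.7e-14). A low remainder of reads was present in each Mll1-KO library. Within 500 kb of Kmt2a, 26 other genes were tested, of which 5 were called higher and 6 lower, with a median change of 0.0084. Over all genes tested, 21.3% were called higher and 18.7% lower, so calls were about as frequent near Kmt2a as elsewhere. Ube4a, a ubiquitin ligase gene 41.8 kb away, rose from 585, 552 and 563 to 798, 793 and 847 (0.52, adjusted p = 4.1e-06). Slc37a4, the glucose-6-phosphate transporter gene 400.4 kb away, fell from 136, 171 and 192 to 70.0, 77.1 and 71.7 (-1.16, adjusted p = 2.7e-06). Changes near the deletion went both ways, as they did across all genes.

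Other genes of the H3K4 methylation machinery were mostly higher. Of 24 tested members of this list, 14 rose and 1, Kmt2a itself, fell, with a median of 0.16 beside 0.0049 over all genes tested. With column totals 11 were higher, and with quantile scaling 9 were higher and 2 lower. Across all genes, 21.3% were called higher and 18.7% lower, against which every list below is read. Setd1b (chromosome 5, 123142193 to 123168629), the catalytic subunit of a SET1 complex, stood at 559, 573 and 490 in WT and at 1236, 1326 and 1374 in Mll1-KO. Its groups did not overlap, and it rose 2.43-fold (1.28 ± 0.08, adjusted p = 1.2e-10). Kmt2d, which encodes MLL4 and acts at enhancers, rose from 1186, 1208 and 1350 to 1945, 1633 and 2422 (0.66, adjusted p = 2e-05). Kmt2c, which encodes MLL3, rose from a mean of 1460 ± 46.2 to 2037 ± 177 (0.48, adjusted p = 3.5e-06, SD, n = 3). Kmt2b, the nearest paralog, rose least of these, from 2853 ± 48.2 to 3379 ± 292 (0.24, adjusted p = 0.0047). With quantile scaling its change was 0.14 and no longer passed (adjusted p = 0.082). The WT and Mll1-KO libraries did not overlap for any of these 4 genes. Kdm5b, a demethylase that removes the same mark, rose from 7912 ± 197 to 9180 ± 328 (0.21, adjusted p = 0.0052), but by 0.08 with quantile scaling (adjusted p = 0.24). Members of this list have long transcripts, with a median of 5893 bases beside 3357 over all genes, and genes with long transcripts were called higher more often, as the shares below show. The median level of the list was 1906 normalized counts, in the fifth of genes with the highest mean, where 44.4% were called higher.

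Across 13984 tested genes, 5594 (40%) were called, 2978 higher (21.3%) and 2616 lower (18.7%). Most changes were small: 3973 of the calls, or 71.0%, were under 1.5-fold, and the median size of a called change was 0.39 on the log2 scale. Large changes were more often falls, with 525 genes (3.75%) at least 2-fold lower and 172 (1.23%) at least 2-fold higher. With quantile scaling these counts were 426 and 333, so the size of this imbalance rested on the scaling. Without the lists of endoderm genes and of glycolysis and hypoxia genes (88 tested genes), 480 of the 525 and 171 of the 172 remained. Whether the rest holds further genes of those processes was not tested. The balance of directions rested on the scaling: with libraries scaled to their column totals, 2164 genes (15.5%) were called higher and 3398 (24.3%) lower, so the share of calls that were higher went from 53.2% to 38.9%. In 7463 genes (53.4%) the 3 WT and 3 Mll1-KO values did not overlap.

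**Figure D1:**
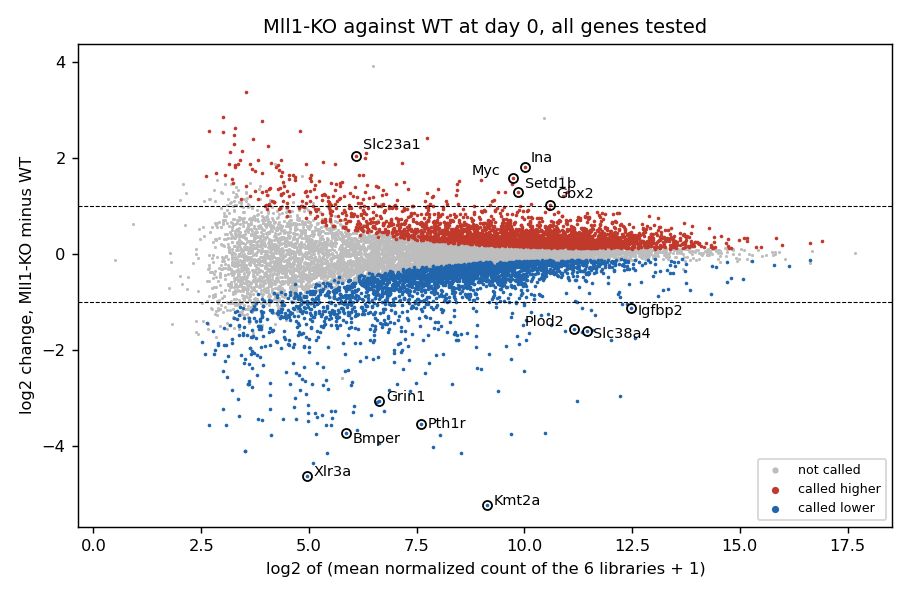
Log2 change in Mll1-KO against WT at day 0 (vertical axis) by log2 of the mean normalized count plus 1 over the 6 libraries (horizontal axis), 1 point per tested gene, red called higher and blue called lower, with dashed lines at 2-fold. Points below the lower dashed line outnumber those above the upper one (525 against 172 called genes), and Kmt2a is the lowest point at -5.22.

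Direction followed level. Among the fifth of genes with the lowest mean, 5.29% were called higher and 13.7% lower, and 10.0% were at least 2-fold lower. In the fifth with the highest mean, 44.4% were called higher and 11.5% lower, and 0.608% were at least 2-fold lower. Transcript length and base composition moved with the direction too, since 14.7% of the fifth with the shortest transcripts and 29.9% of the fifth with the longest were called higher. By GC content, the share called higher was 26.8% in the group of genes with the lowest and 17.2% in that with the highest, and the share called lower was 13.0% and 22.6%. Chromosome medians were close together, from -0.04 on chromosome 9 to 0.07 on the X chromosome, where 27.4% of genes were called higher and 12.8% lower. The part of depth, level, length and GC in the small changes was not tested.

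**Figure D2:**
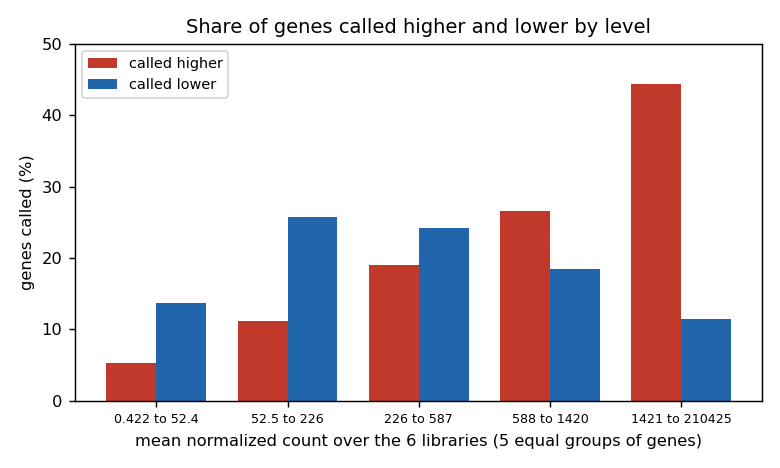
Share of genes called higher (red) and lower (blue) in Mll1-KO, in 5 equal groups of genes by their mean normalized count over the 6 libraries. The share called higher runs from 5.29% to 44.4% with level, and the share called lower is largest in the second group at 25.7%.

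The largest rises outside the endoderm and hypoxia lists included transporters, secreted proteins and genes of neurons and epithelia. Slc23a1, a sodium-dependent vitamin C transporter, stood at 27.6, 25.1 and 25.6 in WT and at 115, 102 and 111 in Mll1-KO. It rose 4.07-fold (2.03 ± 0.17, adjusted p = 7.5e-09) with a wide gap between the groups. Vgf (chromosome 5, 137026392 to 137033351), which encodes a precursor of secreted neuropeptides, rose from 32.9, 22.8 and 38.1 to 107, 128 and 142 (1.99, adjusted p = 7.4e-08). Wt1, a zinc finger regulator of kidney, gonad and mesothelium, rose from 65.8, 53.2 and 59.0 to 241, 209 and 218 (1.89, adjusted p = 1.3e-07). In both genes the lowest Mll1-KO library was above the highest WT library, as the rule that chose the largest rises required. Ina, the neuronal intermediate filament internexin alpha, combined a large rise with many reads, from 479, 433 and 457 to 1617, 1692 and 1474 (1.80, adjusted p = 1.7e-13). Rab25, a small GTPase of epithelial recycling endosomes, rose from 35.8 ± 4.30 to 114 ± 21.0 (1.64, adjusted p = 6.8e-07). Rfx4, a transcription factor of the developing brain, rose from 27.9 ± 8.47 to 78.5 ± 13.2 (1.49, adjusted p = 0.00063). Not every large rise was even between libraries. Zfp781 had the largest change of the 15, at 2.42, but its WT values were 45.2, 197 and 22.5 and its Mll1-KO values 270, 245 and 492, so 1 WT library lay near the Mll1-KO level (adjusted p = 0.0026 in limma and 0.063 in DESeq2).

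The largest falls went further than the largest rises. Xlr3a, an X-linked gene with near-identical copies, so that its counts are uncertain, stood at 43.6, 70.6 and 59.8 in WT and at 0, 1.95 and 3.37 in Mll1-KO (-4.63, adjusted p = 5.3e-07, a value that depends on the pseudocount). Bmper (chromosome 9, 23223076 to 23485200), a secreted protein that binds BMPs, fell from 103, 124 and 96.3 to 8.23, 5.86 and 7.59 (-3.73, adjusted p = 1.4e-08). Pth1r, the receptor for parathyroid hormone and its related peptide, fell from 361, 384 and 329 to 25.7, 39.0 and 27.0 (-3.53, adjusted p = 1e-12). All 3 genes were reduced more than 10-fold on this scale. Their groups did not overlap, but the largest falls were chosen among genes without overlap, so this adds no support. Glrx, a glutaredoxin, fell from 127 ± 5.89 to 9.30 ± 2.49 (-3.66, adjusted p = 3.4e-10). Dram1, a lysosomal membrane protein linked to p53 and autophagy, fell from 158 ± 7.45 to 14.7 ± 3.63 (-3.36, adjusted p = 1.5e-08). Klb, the co-receptor beta-Klotho of endocrine FGFs, fell from 208, 201 and 169 to 14.4, 25.4 and 18.6 (-3.27, adjusted p = 3.8e-10). Others among the 15 largest falls encode an adenosine receptor (Adora1, -3.42), the liver glycogen phosphorylase (Pygl, -3.34) and an RNA export factor of the X chromosome (Nxf7, -3.56).

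Endoderm markers moved the same way as these falls. Of 41 tested endoderm markers, 31 were lower and 3 higher, with a median of -1.74, and their summed level was 72375 to 76183 in WT and 37114 to 40463 in Mll1-KO. Of the 48 markers, 3 were at 0 in all 6 libraries. Fewer cells of a type and less RNA per cell cannot be told apart in bulk libraries, and the part of endoderm-like cells in the falls above was not tested.

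Genes with many reads also changed at least 2-fold. Igfbp2 (chromosome 1, 72824503 to 72852474), a secreted binding protein of insulin-like growth factors, fell from 7403, 7901 and 8172 to 3824, 3683 and 3286 (-1.12, adjusted p = 1.2e-08). Slc38a4 (chromosome 15, 96994820 to 97055956), an amino acid transporter and imprinted gene, fell from 4299, 3972 and 4302 to 1389, 1400 and 1364 (-1.60, adjusted p = 2e-14). Plod2, a collagen lysyl hydroxylase, fell from 3337, 3252 and 3643 to 1134, 1187 and 1121 (-1.57, adjusted p = 8.3e-13). The 3 Mll1-KO libraries lay close together in each of these genes, well under the lowest WT library. Txnip, a thioredoxin inhibitor that responds to glucose, fell from 4510 ± 407 to 1870 ± 128 (-1.27, adjusted p = 2.7e-08), and Upp1, a uridine phosphorylase, from 7164 ± 482 to 3485 ± 236 (-1.04, adjusted p = 5.9e-08). In the other direction, Septin1 rose from 1177 ± 23.9 to 2882 ± 89.7 (1.29, adjusted p = 1.5e-11) and Mylpf, a myosin light chain of fast muscle, from 1150 ± 39.3 to 2644 ± 110 (1.20, adjusted p = 1e-12).

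**Figure D3:**
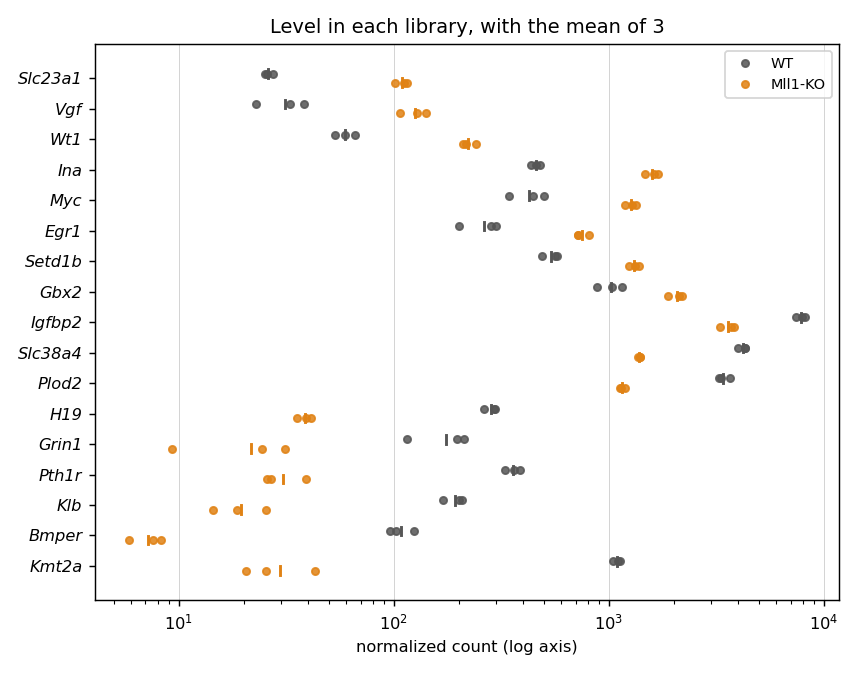
Normalized count (log axis) of 17 genes in the 3 WT (grey) and 3 Mll1-KO (orange) libraries at day 0, with a tick at each mean. The groups do not overlap in any of the genes drawn, which was a condition for naming the largest rises and falls among them. Kmt2a has the widest gap, with WT libraries at 1047 to 1121 and Mll1-KO libraries at 20.6 to 43.0.

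Myc rose, and so did most of a list of ribosome synthesis genes known as its targets. A link between the 2 was not tested. Myc (chromosome 15, 61985391 to 61990374), a transcription factor of growth and proliferation, stood at 498, 442 and 342 in WT and at 1280, 1332 and 1193 in Mll1-KO. It rose 3.00-fold (1.58 ± 0.12, adjusted p = 1.4e-09) with no overlap. Of 52 ribosome biogenesis genes, 46 (88.5%) were called higher and 1, Cad, lower, beside 21.3% higher over all genes and 44.4% of the fifth with the highest level. Their median change was small, at 0.28, and none reached 2-fold. With column totals 38 were higher and 1 lower, and with quantile scaling 34 and 2. The fall of Cad, a pyrimidine synthesis enzyme, was not stable: leaving out single libraries moved its adjusted p to between 0.056 and 0.27 in 5 of 6 fits. Imp4, a component of the small subunit processome, rose from 1330, 1241 and 1135 to 1866, 1758 and 1849 (0.56, adjusted p = 1.6e-07). Ddx21, a nucleolar RNA helicase, rose from 8799 ± 472 to 12783 ± 470 (0.54, adjusted p = 1.9e-08), and Srm, the spermidine synthase, from 3851 ± 132 to 5483 ± 367 (0.51, adjusted p = 4e-07). The most abundant, Npm1 (nucleophosmin), rose from 60857 ± 1388 to 69290 ± 3153 (0.19, adjusted p = 0.011). It did not pass with column totals (0.12, adjusted p = 0.054) or without the second Mll1-KO library (0.15, adjusted p = 0.064).

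MYC binds the E-box CACGTG, which reads the same on both strands, and 11 of the 46 ribosome biogenesis genes with a RefSeq promoter window (23.9%) had it, beside 11.7% of the tested genes with a window (79.1% of those tested have one) and 7.15% of all 32851 windows. A window runs from 250 bases before a transcript's start to 50 after it. For the 2 called genes of the list with the letters before the start and outside the gene itself, the 250 bases before the start are shown (RefSeq, GRCm38.p6), to let the motif be seen in place, with the E-box in capitals. The Imp4 stretch lies at chr1:34439579-34439828 on the plus strand and the Nop2 stretch at chr6:125131633-125131882 on the plus strand. Nop2, a ribosomal RNA methyltransferase gene chosen for display by this rule, rose from 3467 ± 175 to 4170 ± 342 (0.26, adjusted p = 0.00062).
Imp4: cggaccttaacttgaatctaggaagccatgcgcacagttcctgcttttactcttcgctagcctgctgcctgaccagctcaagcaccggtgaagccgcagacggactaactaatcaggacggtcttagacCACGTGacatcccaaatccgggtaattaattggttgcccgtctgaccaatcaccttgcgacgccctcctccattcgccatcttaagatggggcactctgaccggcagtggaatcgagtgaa
Nop2: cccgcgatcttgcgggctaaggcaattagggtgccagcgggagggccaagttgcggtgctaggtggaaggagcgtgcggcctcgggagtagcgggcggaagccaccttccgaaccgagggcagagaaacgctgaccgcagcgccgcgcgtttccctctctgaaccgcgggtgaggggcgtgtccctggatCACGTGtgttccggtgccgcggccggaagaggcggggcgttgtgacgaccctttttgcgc
A match of letters is a description and shows no binding.

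In lists of ribosomal proteins, energy genes and cell cycle genes the balance of directions moved with the scaling. Of 85 cytosolic ribosomal protein genes, 12 were higher and 4 lower, but 3 were higher and 17 lower with column totals. Nuclear genes of the respiratory chain gave 11 higher and 8 lower of 79, against 4 and 20 with column totals, and cell cycle genes gave 14 and 10 of 52, against 10 and 14. Mitochondrial ribosomal proteins gave 16 higher and 3 lower of 78, against 10 and 9. Single members passed the test, such as Atp5o, a subunit of ATP synthase, which rose from 3224 ± 167 to 5092 ± 337 (0.66, adjusted p = 7.1e-09), and the cell cycle inhibitor Cdkn2c, which fell from 65.5 ± 2.12 to 28.3 ± 1.80 (-1.18, adjusted p = 0.00052).

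Pluripotency genes changed in both directions. The core factor Pou5f1 stood at 33397, 33606 and 33167 in WT and at 33023, 30905 and 29601 in Mll1-KO (-0.10, adjusted p = 0.096), so the Mll1-KO libraries were all lower by a margin that did not pass the test. With column totals it passed (-0.17, adjusted p = 0.0035), as it did in edgeR (-0.11, adjusted p = 0.033). Of the other stem cell markers read to check the cell type, the core factor Nanog fell from 15544, 15267 and 15041 to 11489, 12411 and 11790 (-0.36, adjusted p = 7e-07). Zfp42, the marker Rex1, rose from 4631, 4493 and 4365 to 6016, 5719 and 5514 (0.35, adjusted p = 2.6e-06), and the nuclear receptor Esrrb rose by 0.22 (adjusted p = 0.012), a rise that did not pass with column totals (0.15, adjusted p = 0.056) or without the third WT library (0.20, adjusted p = 0.054). Sox2 stood at 7567, 7482 and 7785 and at 7375, 7948 and 7910 (0.02, adjusted p = 0.73), and Klf4 changed by -0.10 (adjusted p = 0.066), or by -0.17 with column totals, where it passed (adjusted p = 0.0055). Of 30 naive and core genes, 15 were higher and 7 lower (median 0.14), or 12 and 10 with column totals, and their summed level overlapped between the groups, at 205868 to 208942 and 203346 to 211264. The median level of the list was 4254, and 44.4% of the fifth of genes with the highest level were called higher. Gbx2, a homeobox factor that supports naive cells downstream of LIF, rose from 1157, 1031 and 881 to 2111, 2191 and 1893 (1.02, adjusted p = 1.3e-08). Nr0b1, an X-linked nuclear receptor of the naive network, rose from 3381, 2953 and 2970 to 5875, 5453 and 5112 (0.82, adjusted p = 1e-07). Among the falls, Tdgf1, the Nodal co-receptor Cripto, went from 32565, 33865 and 33638 to 22679, 24713 and 23819 (-0.49, adjusted p = 2.3e-08). Tbx3, a T-box factor, fell from 2429 ± 132 to 1731 ± 139 (-0.49, adjusted p = 5.5e-05), and Socs3, the feedback inhibitor of LIF signalling, from 3550 ± 160 to 2706 ± 160 (-0.39, adjusted p = 1.4e-05).

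Formative genes, which mark the step after the naive state, were more often higher, with 12 of 22 higher and 3 lower (median 0.31). Grhl2, an epithelial transcription factor, rose from 444, 393 and 344 to 904, 839 and 830 (1.13, adjusted p = 2.7e-09). Dnmt3b, a de novo DNA methyltransferase, rose from 3432, 3344 and 2950 to 6093, 5797 and 5611 (0.85, adjusted p = 7.5e-10). Otx2, a defining transcription factor of that state, went the other way, from 61.3, 56.2 and 83.1 to 20.6, 22.5 and 26.1 (-1.48, adjusted p = 0.0063). Car4, a carbonic anhydrase, also fell, from 506 ± 25.3 to 164 ± 21.4 (-1.63, adjusted p = 3.8e-08). The list therefore did not move as a block.

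FGF signals through ERK, whose early response genes include transcription factors and feedback inhibitors. Of 38 such genes tested, 19 were higher and 7 lower (median 0.30), or 17 and 9 with column totals. Egr1, an immediate early transcription factor, rose from 299, 284 and 201 to 720, 810 and 717 (1.53, adjusted p = 1.7e-08). Spred3, an inhibitor of the pathway, rose from 55.9, 47.8 and 31.8 to 118, 91.8 and 121 (1.29, adjusted p = 1.3e-05). The early response gene Ier3 fell, from 299, 468 and 431 to 84.4, 93.7 and 94.4 (-2.10, adjusted p = 2.3e-08). Maff, a small MAF factor, fell from 428 ± 18.1 to 234 ± 10.2 (-0.87, adjusted p = 2.7e-07). Upstream, of 30 FGF ligands and receptors 8 were higher and 9 lower. Fgf4, the main FGF ligand of stem cells, fell from 6478, 6294 and 6585 to 5547, 5296 and 5041 (-0.29, adjusted p = 0.0018). Fgfr3, an FGF receptor, fell from 136 ± 3.66 to 44.3 ± 6.34 (-1.61, adjusted p = 2e-07), and the ligand Fgf10 from 145 ± 37.7 to 33.4 ± 15.7 (-2.19, adjusted p = 4.2e-06). The ligand Fgf18 rose at a low level, from 13.3 ± 4.83 to 31.1 ± 3.63 (1.21, adjusted p = 0.0088).

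Other developmental pathways gave short lists of changes in both directions. In the BMP pathway, 4 of 25 genes were higher and 5 lower: the ligands Bmp6 (229 ± 0.551 to 66.8 ± 2.97, -1.76, adjusted p = 6.5e-07) and Bmp7 (183 ± 32.7 to 66.5 ± 2.87, -1.43, adjusted p = 2.3e-07) fell. The BMP target Id3, an inhibitor of helix-loop-helix factors, rose from 217, 212 and 184 to 527, 468 and 433 (1.21, adjusted p = 4.2e-07). Wnt genes gave 8 higher and 6 lower of 49, under the share over all genes in both directions. The Wnt targets Sp5 and Notum nevertheless rose, Sp5 from 25.5 ± 6.35 to 70.6 ± 6.58 (1.46, adjusted p = 0.0013) and Notum, a secreted Wnt inhibitor, from 141 ± 9.89 to 324 ± 13.1 (1.20, adjusted p = 6.4e-07). In the Hedgehog pathway 5 of 14 were higher and 4 lower. Its target gene Gli1 rose from 608, 642 and 638 to 1311, 1271 and 1211 (1.00, adjusted p = 1.3e-10). Its ligand gene Ihh fell from 20.7, 22.0 and 21.0 to 1.03, 3.90 and 2.53 (-2.76, adjusted p = 0.00011). Notch genes were more often lower, 11 of 23 with 3 higher (median -0.18), among them the ligand Dll1 (107 ± 17.3 to 55.7 ± 5.64, -0.92, adjusted p = 0.003). Of 26 Nodal and activin genes, 5 were higher and 8 lower.

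Neural genes were more often higher. Of 33 tested neural progenitor and neuron markers, 15 were higher and 3 lower (median 0.28), and their summed level was 14210 to 14893 in WT and 17898 to 18709 in Mll1-KO. Pax6, a master regulator of eye and forebrain, rose from 23.0, 41.0 and 32.6 to 81.3, 70.3 and 63.2 (1.16, adjusted p = 0.00078). Mapt, which encodes tau, fell from 728 ± 29.0 to 520 ± 32.2 (-0.49, adjusted p = 1.1e-05). Among 93 ion channel genes 10 were higher and 19 lower, against 15 and 12 with quantile scaling. Scn3a, a neuronal sodium channel, rose from 51.3, 54.7 and 50.5 to 147, 117 and 154 (1.39, adjusted p = 2.1e-07). Grin1, the obligate subunit of NMDA receptors (chromosome 2, 25291181 to 25319187), fell from 116, 212 and 197 to 9.26, 24.4 and 31.2 (-3.07, adjusted p = 1.8e-05).

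Among genes of other chromatin complexes, remodellers were mostly higher. Of 35 remodeller genes 21 were higher and 3 lower (median 0.28), with a median transcript of 7261 bases. Their median level was 2181, in the fifth of genes where 44.4% were called higher. Arid1a, a subunit of the BAF remodeller, rose from 5402, 5450 and 5106 to 8107, 7895 and 8451 (0.62, adjusted p = 4.3e-10). Bptf, the large subunit of NURF, rose from 2861 ± 95.5 to 4074 ± 208 (0.51, adjusted p = 1.9e-07), and Chd4, the motor of NuRD, from 8269 ± 205 to 10403 ± 451 (0.33, adjusted p = 4.8e-06). Polycomb complexes, which oppose MLL proteins at developmental genes, gave 14 higher and 5 lower of 35, or 9 and 6 with column totals. The PRC2 partners Epop (7283 ± 497 to 10664 ± 505, 0.55, adjusted p = 4.6e-06) and Jarid2 (6986 ± 503 to 9272 ± 273, 0.41, adjusted p = 1.4e-06) rose. Of 370 numbered zinc finger genes, most of them repressors of repeats or genes, 125 (33.8%) were higher and 14 (3.78%) lower. With column totals these counts were 101 and 28. Their changes were small (median 0.17), 4 rose and 1 fell at least 2-fold, their transcripts had a median GC of 44.7%, and counts of genes with near-identical copies among them are uncertain. DNA methylation genes gave 8 higher and 4 lower of 24, and histone genes 3 and 1 of 47.

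Most Hox genes and other classical targets of MLL1 had few reads in stem cells. Of 51 Hox and leukaemia target genes, 22 passed the filter on low counts, with a median level of 23.3 normalized counts, and 3 of them were higher and 7 lower (median -0.52). Hoxd8 was at 19.9, 12.9 and 28.7 in WT and 8.23, 5.86 and 8.43 in Mll1-KO (-1.29, adjusted p = 0.032), a call that 5 of 6 fits without 1 library lost (adjusted p of 0.052 to 0.16). For Hoxb13 (20.7, 27.3 and 33.4 against 5.14, 9.76 and 21.1) the groups overlapped (-1.28, adjusted p = 0.017), and the call was lost without the third WT library (adjusted p = 0.078) or the first Mll1-KO library (adjusted p = 0.11). The cell cycle inhibitor Cdkn2c, described above and also in this list, fell without overlap, from 66.6, 63.0 and 66.8 to 26.8, 30.3 and 27.8 (-1.18, adjusted p = 0.00052). Of the 3 higher members, Jmjd1c, a Jumonji family gene with many reads, rose from 4966, 4918 and 4734 to 6602, 6232 and 6773 (0.42, adjusted p = 2.2e-07).

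Imprinted genes, which are expressed from 1 parental copy, changed in both directions. Of 49 tested, 20 were higher and 11 lower (median 0.18). H19 (chromosome 7, 142575529 to 142578143), a maternally expressed noncoding RNA, fell from 295, 292 and 263 to 39.1, 41.0 and 35.4 (-2.85, adjusted p = 9.2e-11). Of the maternal RNAs of the Dlk1 domain, Rian fell from 39.8, 50.9 and 53.6 to 13.4, 8.79 and 5.06 (-2.36, adjusted p = 1.7e-05), and Meg3 from 26.0, 36.5 and 27.2 to 1.03, 3.90 and 2.53 (-3.22, adjusted p = 0.00023). Cdkn1c, a maternally expressed cell cycle inhibitor, rose from 563, 472 and 455 to 1004, 985 and 822 (0.91, adjusted p = 1.5e-07). Nnat, the paternally expressed neuronatin, rose from 87.3 ± 11.9 to 171 ± 24.4 (0.96, adjusted p = 0.00034). The parental allele of the reads is not in the counts.

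Germline genes were more often lower. Of 48 germline and piRNA genes, 13 were lower and 3 higher (median -0.31), and Smc1b, the meiotic cohesin subunit, fell from 99.5, 116 and 138 to 16.5, 35.1 and 24.5 (-2.22, adjusted p = 5.3e-07). Stra8, a meiotic entry gene, rose instead, from 327 ± 19.7 to 578 ± 28.4 (0.82, adjusted p = 1.7e-07). Of 21 two-cell-like genes 8 were lower and 1 higher (median -0.79). Their median level was 31.6 normalized counts, and some have near-identical copies that make their counts uncertain. Among X-linked Xlr, Rhox and Magea genes, Rhox5, a placental homeobox gene, fell from 538, 518 and 476 to 150, 191 and 141 (-1.67, adjusted p = 1.4e-10).

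Lipid synthesis genes were more often lower. None of 30 cholesterol synthesis genes was called higher and 13 were called lower (median -0.31), and of 29 fatty acid genes 13 were lower and 1 higher (median -0.24). Scd1, a fatty acid desaturase, fell from 2022, 2154 and 2152 to 858, 861 and 961 (-1.24, adjusted p = 4.8e-06). Its relative Scd2 fell from 10220, 11711 and 12108 to 6069, 5733 and 6866 (-0.87, adjusted p = 0.00014). Insig1, the sterol-responsive brake on SREBP, fell from 1484, 1659 and 1798 to 921, 914 and 935 (-0.83, adjusted p = 0.00078). Fasn, the fatty acid synthase, was the exception and rose from 6694 ± 269 to 8905 ± 562 (0.41, adjusted p = 0.0068 in limma and 0.071 in DESeq2).

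Stress pathways were counted separately. Of 37 genes of the integrated stress response and amino acid supply, 22 were higher and 3 lower (median 0.18), or 17 and 4 with column totals and 13 and 3 with quantile scaling. The median level of this list was 2771, in the fifth of genes where 44.4% were called higher. Atf5, a transcription factor of that response, rose from 912, 981 and 895 to 1419, 1772 and 1501 (0.74, adjusted p = 1.7e-06). Chac1, a glutathione-degrading enzyme induced by ATF4, rose from 429 ± 16.7 to 706 ± 59.8 (0.71, adjusted p = 5.7e-07). Of 34 p53 targets 15 were lower and 9 higher, and Rrm2b, a ribonucleotide reductase subunit, fell from 657 ± 66.8 to 289 ± 46.9 (-1.19, adjusted p = 3.7e-08). NRF2 and glutathione genes gave 15 higher and 7 lower of 36, heat shock genes 11 and 11 of 35, interferon genes 2 and 6 of 26, and apoptosis genes 5 and 10 of 35.

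Lysosome and endocytosis genes were lower in 19 of 41 and higher in 3 (median -0.21), or 25 and 2 with column totals. Lgmn, the protease legumain, fell from 1952, 1829 and 1904 to 787, 799 and 754 (-1.28, adjusted p = 3.7e-13). The cathepsins Ctsc (393 ± 12.3 to 139 ± 17.5, -1.50, adjusted p = 1.4e-09) and Ctsh (69.5 ± 4.38 to 13.3 ± 9.72, -2.63, adjusted p = 0.00018) also fell. Tfe3, a transcription factor of lysosomal genes, rose from 1576 ± 110 to 2063 ± 11.4 (0.39, adjusted p = 0.00071). Visceral endoderm is rich in lysosomes, and the endoderm markers fell in the same libraries, as described above, which was not tested as a source of this change. Of the 33 lysosome genes with a promoter window, 12 (36.4%) held CACGTG, a share above that of the ribosome biogenesis list.

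**Figure D4:**
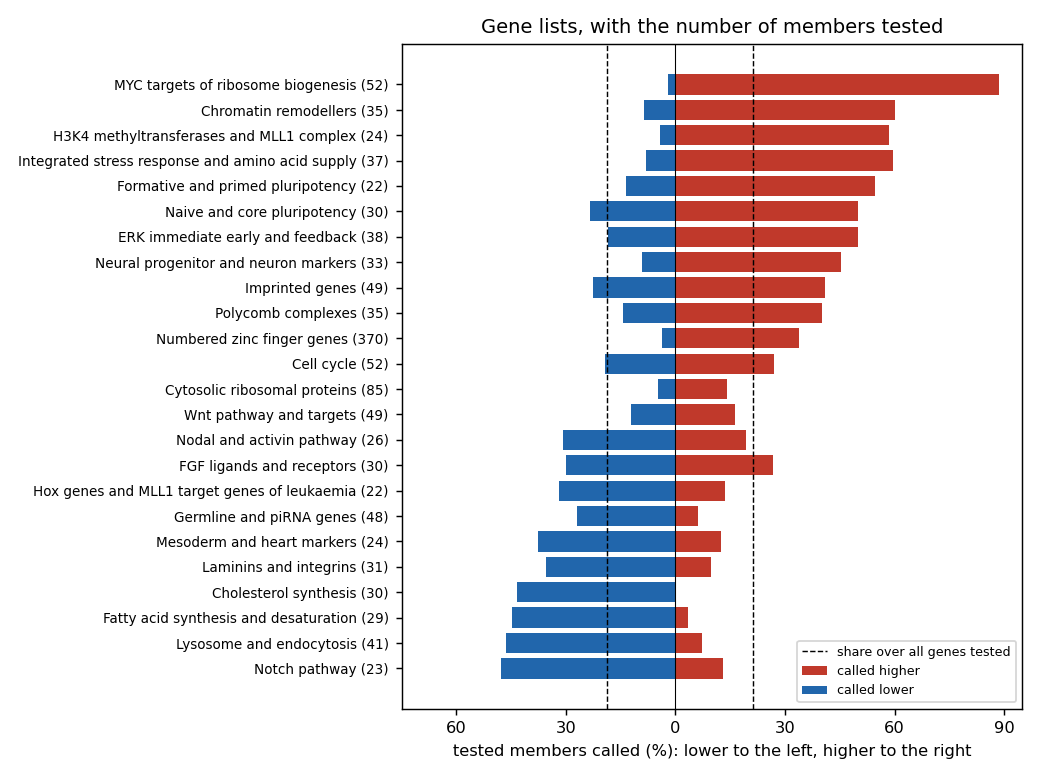
Share of the tested members of 24 gene lists called higher (red, to the right) and lower (blue, to the left) in Mll1-KO at day 0, with dashed lines at the shares over all genes tested, 21.3% and 18.7%. Ribosome biogenesis genes reach 88.5% higher, and of the 24 lists drawn the Notch, lysosome, fatty acid and cholesterol lists extend furthest to the left. The share called higher grows with level, which the dashed lines leave out.

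Adhesion and matrix lists held calls in both directions. Laminins and integrins gave 11 lower and 3 higher of 31, a list that holds the endoderm laminins, and solute carriers gave 57 lower and 36 higher of 224. Podxl, a sialomucin of the apical surface, fell from 1450, 1566 and 1562 to 617, 626 and 518 (-1.38, adjusted p = 6.8e-12). Cdh1, the E-cadherin of stem cell junctions, rose from 5703 ± 113 to 6280 ± 125 (0.14, adjusted p = 0.012), a rise that did not pass with column totals (0.07, adjusted p = 0.16). Cdh2, N-cadherin, rose from 100.2 ± 16.1 to 185 ± 14.1 (0.88, adjusted p = 0.0016). Collagens gave 3 higher and 4 lower of 26, other cadherins 3 and 2 of 19, clustered protocadherins 2 and 1 of 22, and epithelial and mesenchymal junction genes 11 and 8 of 31.

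Markers of other cell types held calls in both directions. Of 24 mesoderm and heart markers 9 were lower and 3 higher (median -0.59, summed level 2777 to 3156 in WT and 1426 to 1532 in Mll1-KO). This list shares Gata4, Gata6, Pdgfra and Snai1 with the endoderm list. Trophectoderm markers gave 8 lower and 3 higher of 23, and their summed level was 14428 to 15089 in WT and 16781 to 17681 in Mll1-KO. Peg10, an imprinted placental gene, rose from 8633 ± 469 to 12131 ± 322 (0.49, adjusted p = 1.9e-05) and made up most of that sum. Fibroblast markers gave 4 lower and 1 higher of 9, with summed levels of 18135 to 19191 and 15014 to 17588, and 5 of the 20 were at 0 in all 6 libraries. Blood and endothelial markers gave 5 lower and 3 higher of 17, mesothelial markers 3 lower and 2 higher of 13, and neural crest markers 1 higher of 10.

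The same genes were then compared between the other pair of day 0 groups, whose libraries entered the results above through the filter and the estimate of spread, but not through the group means. The double-KO was set against Mll2-KO, both treated with 800 nM 4-OHT for 48 h. The count of Kmt2b does not show the loss of MLL2 that these labels name: it stood at 2853 ± 48.2 in WT, 2539.9 ± 226 in the libraries labelled Mll2-KO and 2639.9 ± 137 in those labelled double-KO. The part of the gene that Cre removes is not given in the labels, so a count over the whole gene does not check it. There 47.7% of all genes were called, 23.4% higher and 24.3% lower. Of the 172 genes at least 2-fold higher in Mll1-KO, 125 (72.7%) were also called higher there, none was called lower and 47 were not called, and their median change was 1.11 beside 1.32. Of the 525 at least 2-fold lower, 378 (72.0%) were also called lower, 13 were called higher and 134 were not called, with a median of -1.17 beside -1.45. The difference between the 2 changes passed its own test in 9.13% of all genes, in 14 of the 172 and in 86 of the 525. These genes were chosen by a large first change, which is part of that difference. The choice by itself favours a smaller second change and a called difference, so these medians and counts do not measure an effect of the background. Bmper was again far lower (-4.09, adjusted p = 2.4e-09), and so were Pth1r (-3.12, adjusted p = 6.2e-12) and Kmt2a (-5.53, adjusted p = 1.5e-14). Wt1 (1.97, adjusted p = 5e-08) and Gbx2 (1.13, adjusted p = 1.9e-09) were again higher. The labels do not say how many Mll1-KO clones were used, so the double-KO may come from the same clone as the Mll1-KO. For changes shared by the 2 comparisons, genotype and clone therefore cannot be told apart.

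For some genes the 2 changes differed by their own test. Cdc42ep2, an effector of the GTPase CDC42, stood at 52.1, 113 and 97.9 in WT and 9.26, 11.7 and 4.22 in Mll1-KO (-3.26). It was already low in Mll2-KO, at 23.1 ± 4.03, and stood at 22.5 ± 4.36 in the double-KO. That change was -0.04 (adjusted p of the difference = 0.00023). Grin1 changed by -3.07 between WT and Mll1-KO and by 1.37 between Mll2-KO and the double-KO (adjusted p of the difference = 0.00013), and Ier3 by -2.10 and 0.89 (1.4e-07). Pgm1, a phosphoglucomutase, changed by -1.48 and 0.17 (2.4e-07), and Igfbp2 by -1.12 and -0.13 (6e-05). Others changed more between the libraries labelled Mll2-KO and double-KO, such as Slc38a4 by -1.60 and -2.66 (1.6e-08), Klb by -3.27 and -4.87 (0.0023), and Ina by 1.80 and 2.65 (1.9e-05). Among lists, ribosome biogenesis genes were again higher (39 of 52, none lower). Cholesterol genes were higher there in 15 of 30 and lower in 3, with 16 of 30 differing between the backgrounds. The third Mll2-KO library stood apart in lipid genes, with Insig1 at 991, 948 and 2097 in Mll2-KO beside 1822, 1771 and 2046 in the double-KO. Without that library 18 cholesterol genes were higher and 4 lower, with 21 differing. The stress response list gave 5 higher and 12 lower there, with 20 of 37 differing, and without that library 8 and 9, with 21 differing. Glycolysis and hypoxia genes differed in 36 of 47, with 43 lower here and 22 higher and 11 lower there. Clone, 4-OHT and the labelled loss of MLL2 cannot be told apart in these differences.

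**Figure D5:**
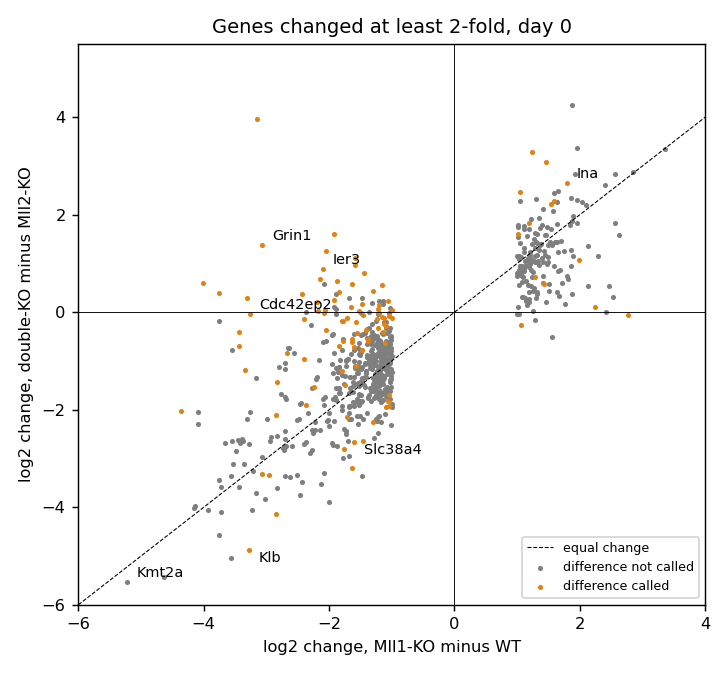
Log2 change in double-KO against Mll2-KO (vertical axis) by that in Mll1-KO against WT (horizontal axis) at day 0 for the 697 genes called and changed at least 2-fold in the latter, orange where the difference between the changes was called. Genes on the dashed line changed equally. Cdc42ep2, Ier3 and Grin1 lie near or above 0 on the vertical axis, while Klb and Slc38a4 lie under the line.

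At day 4, in medium with 10% FBS, no LIF and 1 µM retinoic acid, the same genes were compared between Mll1-KO and WT in libraries of their own. Of 14303 genes tested at day 4, 35.8% were called, 2367 higher and 2753 lower. Of 134 day 0 rises that were tested, 39 (29.1%) were called higher and 16 lower, with a median of 0.17, and of 462 falls 185 (40.0%) were called lower and 48 higher, with a median of -0.19. H19 (-4.35, adjusted p = 4.2e-27), Klb (-1.39, adjusted p = 2.2e-15) and Slc38a4 (-1.05, adjusted p = 2.3e-13) were lower again, and Egr1 (1.13, adjusted p = 7.9e-12) was higher again. Setd1b was at a change of 0.06 (adjusted p = 0.47), Bmper at 0.00 (adjusted p = 0.98) and Pth1r at -0.06 (adjusted p = 0.40). Dnmt3b was lower at day 4 (-0.70, adjusted p = 1.1e-10), and the ribosome biogenesis list gave 0 higher and 19 lower of 52. Whether the change differed between the days was not tested.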

How the data were processed

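Polyadenylated RNA was sequenced from stranded libraries, per the labels' protocols. The authors deposited normalized counts, a signal equal to reads divided by 1 size factor per library. Trim Galore 3.4, STAR 2.7.10a, RSEM 1.3.1, SAMtools 1.13, FastQC, DESeq2 1.34.0 and mm10 are named, per the submitters' processing notes, and the annotation is not given in the sources used here. In the 12 day 0 libraries all values were whole multiples of the smallest value (tolerance 1e-06), which gave back 17703443 to 22544651 reads in each of the 6 libraries compared.

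Genes with at least 10 normalized counts in at least 3 of the 12 day 0 libraries were tested, 13984 of 19953 (other genes were not analysed). The linear model with a variance trend came from limma 3.58.1 (R 4.3.3), used values of log2(normalized count + 1) and took in all 12 day 0 libraries, with the contrast Mll1-KO minus WT and Benjamini-Hochberg adjustment over all genes tested. The same fit gave double-KO minus Mll2-KO and the difference of the 2 contrasts, and a separate fit gave day 4. Since the values are not raw counts, edgeR 4.0.16 (quasi-likelihood) and DESeq2 1.42.0 on the recovered reads served as alternatives. On simulated data with 200 changed genes among 13984, the Mll1-KO against WT test recovered 74% of 1.5-fold and 85% of 2-fold changes, and 4.79% of its calls were false. The simulation had no shift in scaling and far fewer changed genes than the 40% called in the data. Its shares therefore do not describe the 5594 calls. Errors are SD over 3 libraries unless marked SE.

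Pairs of replicates differed by more than sampling noise (chi-square per degree of freedom 3.63 to 9.08). Genes named were Kmt2a, Kmt2b, the neighbours of Kmt2a, the 15 largest rises and falls without overlap of the libraries, the 10 most abundant 2-fold changes, genes nearly silent in 1 group, and up to 3 rises, 3 falls and the most abundant member of each of 55 gene lists. Nop2 and the stem cell markers Nanog, Sox2, Zfp42, Esrrb and Klf4 were added outside this rule, after their values were seen. Not all genes the rule gives are reported here. The comparison and the lists were chosen with earlier results of these data known. Positions come from GENCODE M21 (19370 symbols with 1 locus, 97.1%) and promoters from RefSeq GRCm38.p6. A check of promoter composition in the 2-fold classes is void, since 62.8% and 74.3% of their genes had a window.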

Additional observations from a re-analysis of the deposited data

Results flagged for a closer look

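For 49 of the genes named above, the change between Mll1-KO and WT differed from the change between the libraries labelled double-KO and Mll2-KO (both with 4-OHT, and with Kmt2b counts that do not show the labelled loss of MLL2), by limma's test of the difference itself at an adjusted p under 0.05. Across all genes 9.13% passed this test. Many of the named genes were chosen for a large first change, which is part of the difference. That choice by itself favours a called difference and a smaller second change, so 9.13% is no baseline for the 49. Each value below is the second log2 change minus the first, so a positive value means a higher change in double-KO against Mll2-KO. The second change starts from the Mll2-KO level, which was not always that of WT. Mll2-KO already stood above WT in Atf5 (2081 ± 370 against 929 ± 45.1) and Chac1 (1130 ± 129 against 429 ± 16.7). It was near WT in Bmp6 (224 ± 16.0 against 229 ± 0.551) and Car4 (501 ± 110 against 506 ± 25.3). With each of those 6 libraries left out in turn, 36 of the 49 kept an adjusted p under 0.05 in every fit and none changed sign. The 13 that lost it in at least 1 fit were Arid1a, Bmp6, Egr1, Epop, Fasn, Fgfr3, Gata4, Kmt2c, Nanog, Notum, Peg10, Sp5 and Vgf.

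Among genes that fell in Mll1-KO, the difference was positive for Grin1 (4.44), Cdc42ep2 (3.22), Ier3 (2.99), the glycogen and sugar genes Pygl (2.16), Pgm1 (1.65) and Slc37a4 (1.06), and Igfbp2 (0.99), Upp1 (0.95), Fgfr3 (0.89), Podxl (0.79), Maff (0.63), Plod2 (0.46), Socs3 (0.40) and Tdgf1 (0.31). The lipid genes Insig1 (1.41), Scd2 (1.39) and Scd1 (1.10) also had a positive difference, as had Fasn (0.58), which rose in Mll1-KO. The third Mll2-KO library stood apart in these genes, with Insig1 at 991, 948 and 2097 and Fasn at 7019, 6580 and 11019 in Mll2-KO. Without it the differences were 1.78 for Insig1, 1.71 for Scd2, 1.45 for Scd1 and 0.81 for Fasn. Gata4, an endoderm and heart factor, differed by 0.46.

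Among genes that rose in Mll1-KO, the difference was positive for Sp5 (1.62), Nnat (1.10), Ina (0.85), Myc (0.70), Egr1 (0.68), Notum (0.64), Peg10 (0.34), Chd4 (0.29) and Jarid2 (0.28).

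It was negative for other genes that rose, which were Vgf (-0.92), Stra8 (-0.78), Nr0b1 (-0.76), Atf5 (-0.70), Chac1 (-0.66), Setd1b (-0.56), Jmjd1c (-0.38), Epop (-0.37), Kmt2c (-0.33), Cdh1 (-0.31), Bptf (-0.30), Arid1a (-0.20) and Esrrb (-0.47). It was also negative for Klf4 (-0.46), which did not pass in Mll1-KO, and for genes that fell, which were Klb (-1.60), Car4 (-1.57), H19 (-1.29), Slc38a4 (-1.07), Bmp6 (-1.03), Tbx3 (-0.74) and Nanog (-0.20).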

How the results depend on the processing

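The 5594 calls ranged from 5381 to 6380 over the settings that keep every library (5516 without the endoderm and hypoxia lists), including 5644 in edgeR and 5523 in DESeq2. Genes at least 2-fold higher, 172 above, were 88 with a minimum of 50 counts and 333 with quantile scaling, and those at least 2-fold lower, 525 above, were 318 with the minimum of 50, where fewer genes are tested, and 426 with quantile scaling. The cause of the value of 333 was not tested. Column totals shifted the median change by -0.07. Leaving out each of the 6 libraries in turn gave 4524 to 4990 calls, 2439 to 2704 higher and 2085 to 2321 lower, with 153 to 192 and 458 to 522 at least 2-fold. With the replicate number as a block there were 5840 calls. Same-numbered WT and Mll1-KO libraries did not deviate together (r = 0.02, 0.03 and 0.00), so the numbers do not pair them, and not every library correlated best with its own number. The double-KO comparison gave 6088 to 6735 calls, day 4 gave 4849 to 5240 and the difference between backgrounds 1027 to 1369. Leaving out each Mll2-KO and double-KO library in turn, chosen after seeing the data, gave 5814 to 6517 calls in the double-KO comparison and 967 to 1462 for the difference. The edgeR alternative for day 4 was not run, since reads were not recovered with certainty in 1 of its libraries.

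Of 108 named genes with a call, 98 kept it under all 16 settings tried with a value. The other 10 were Cad, Cdh1, Esrrb, Fasn, Hoxb13, Hoxd8, Kdm5b, Kmt2b, Npm1 and Zfp781, which lost it in 26 fits. No named gene with a call changed direction, while the uncalled Sox2 went from 0.02 to -0.042 with column totals and -0.11 with quantile scaling. Genes with fewer reads than the filter asks were not tested.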
